A study of Mus musculus with 18 samples.

Results

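The TGF-beta pathway genes followed here are 10 genes chosen by name, of 27297 gene rows counted: the ligand Tgfb1, the receptors Tgfbr1 and Tgfbr2, the transducers Smad3 and Smad4, the inhibitors Smad7, Ski and Skil, and the target genes Pmepa1 and Tgfbi. Of these, 9 had a row of their own, and Smad3 was counted in a row that it shares with the transcript AK214683, so its values cannot be given to Smad3 alone. All 10 passed the filter on low counts and entered the test across genes. The cells were single sorted myeloid cells of C57BL/6J mice labelled CX3CR1-GFP+, in which green fluorescent protein reports Cx3cr1, a chemokine receptor gene of microglia and other myeloid cells. None of the mice was treated, and every group carries the reporter. Cells came from yolk sac at embryonic day 12.5 (E12.5; 4 libraries, 671 cells), from brain at E12.5 (4 libraries, 718 cells), from brain at E18.5 (6 libraries, 992 cells) and from adult brain (4 libraries, 631 cells). Both E12.5 groups were sorted as CD45+CD11B+CX3CR1-GFP+ and the later groups as CD45intCD11BintCX3CR1-GFP+, so between E12.5 and the later ages the gate changed together with age. The deposited well annotation gives 1 subject number per age, and no label says that the libraries of a group came from separate animals, so the p-values measure only the spread between libraries, which may be technical.

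TGF-beta is secreted in a latent form and, once released, binds the type II receptor Tgfbr2, which recruits and phosphorylates the type I receptor Tgfbr1. Tgfbr1 phosphorylates Smad2 and Smad3, which join Smad4 and enter the nucleus to regulate genes. Smad7, Ski, Skil and Pmepa1 restrain the pathway, and Smad7, Skil and Pmepa1 are also known to be induced by it. In the brain the pathway is known for sustaining the gene expression of adult microglia.

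MARS-seq counts the 3' ends of polyadenylated transcripts by unique molecular identifiers (UMIs), and levels are given as CPM, a gene's UMIs scaled to the library total. Library totals were lowest in adult brain (74562 to 99494 UMIs), intermediate at E18.5 (143876 to 217647), and highest at E12.5 (269698 to 309084 in yolk sac and 228467 to 534219 in brain), and the median cell held 1511 UMIs in yolk sac, 1725 and 983 in embryonic brain at E12.5 and E18.5, and 521 in adult brain. The summed level of 9 microglia markers stepped up from yolk sac (4142 to 5306 CPM) over E12.5 (10360 to 10922) and E18.5 brain (21637 to 23754) to adult brain (37365 to 40306). Of 7 markers of yolk sac and border macrophages, all were detected in yolk sac (3781 to 6370 CPM together). Their sum was 87.5 to 287 in E12.5 brain, 142 to 281 at E18.5 and 0 to 187 in adult brain. Cbr2, Clec10a, Ms4a7 and Lyve1 were at 0 in the adult libraries, and F13a1 reached 177 CPM in 1 of them. In adult brain the granule proteases and other granulocyte precursor markers summed to 2495 to 9439 CPM over 4 of 6 genes, with S100a8 and S100a9 at 0, against 79 to 158 CPM in E12.5 brain, 230 to 1267 at E18.5 and 429 to 1542 in yolk sac. Erythroid markers summed to 189 to 4002 CPM in yolk sac and 11.2 to 150 CPM in E12.5 brain, and reached 3065 CPM in 1 E18.5 library against a median of 45.0. Of 6 monocyte markers only Ly6c2 was detected in adult brain, at up to 1870 CPM in 1 library. The part of these other markers in the results was not tested. At E12.5, yolk sac replicates 1 and 2 and brain replicates 3 and 4 were sequenced in batch SB29, brain replicates 1 and 2 in SB25 and yolk sac replicates 3 and 4 in SB31, which also holds all later libraries. Each plate gave 2 libraries, so that the 4 libraries of a group come from 2 plates and the 6 at E18.5 from 3.

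At E12.5 the ligand's levels overlapped between the tissues, while the type I receptor, the inhibitors and Pmepa1 were lower in yolk sac. By edgeR's quasi-likelihood test, with Benjamini-Hochberg adjustment over 4883 genes and an adjusted p under 0.05, 5 of the 10 members were lower in yolk sac (Tgfbr1, Smad7, Ski, Skil and Pmepa1), 0 were higher and 5 did not pass. Over all genes tested, 15.9% passed in either direction and 8.81% were lower in yolk sac. The libraries of the 2 tissues did not overlap for these 5 members, which was so in this direction for 11.6% of all genes. Between brain at E18.5 and E12.5, 0 of the 10 members passed, against 24.5% of all genes, with 2 members (Tgfbr2 and Tgfbi) at an unadjusted p under 0.05 and 1 member, Tgfbr2, called by DESeq2; the libraries overlapped for all 10, where 18.7% of all genes had none. From E18.5 to adult brain 7 members rose (Tgfb1, Tgfbr1, Smad3, Smad7, Ski, Skil and Pmepa1), 0 fell and 3 did not pass, against 21.5% of all genes in either direction and 10.3% that rose. Adult libraries lay above all E18.5 libraries for 8 members, these 7 and Tgfbr2, against 7.7% of all genes. The median log2 fold change of the 10 members was -0.93, 0.16 and 1.15 in these 3 comparisons, and that of all genes tested was -0.05, -0.03 and -0.03. The comparisons share libraries and are not independent of each other. The members were chosen with earlier results of these data known, so the shares of all genes beside them are a description and not a test.

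**Figure D1:**
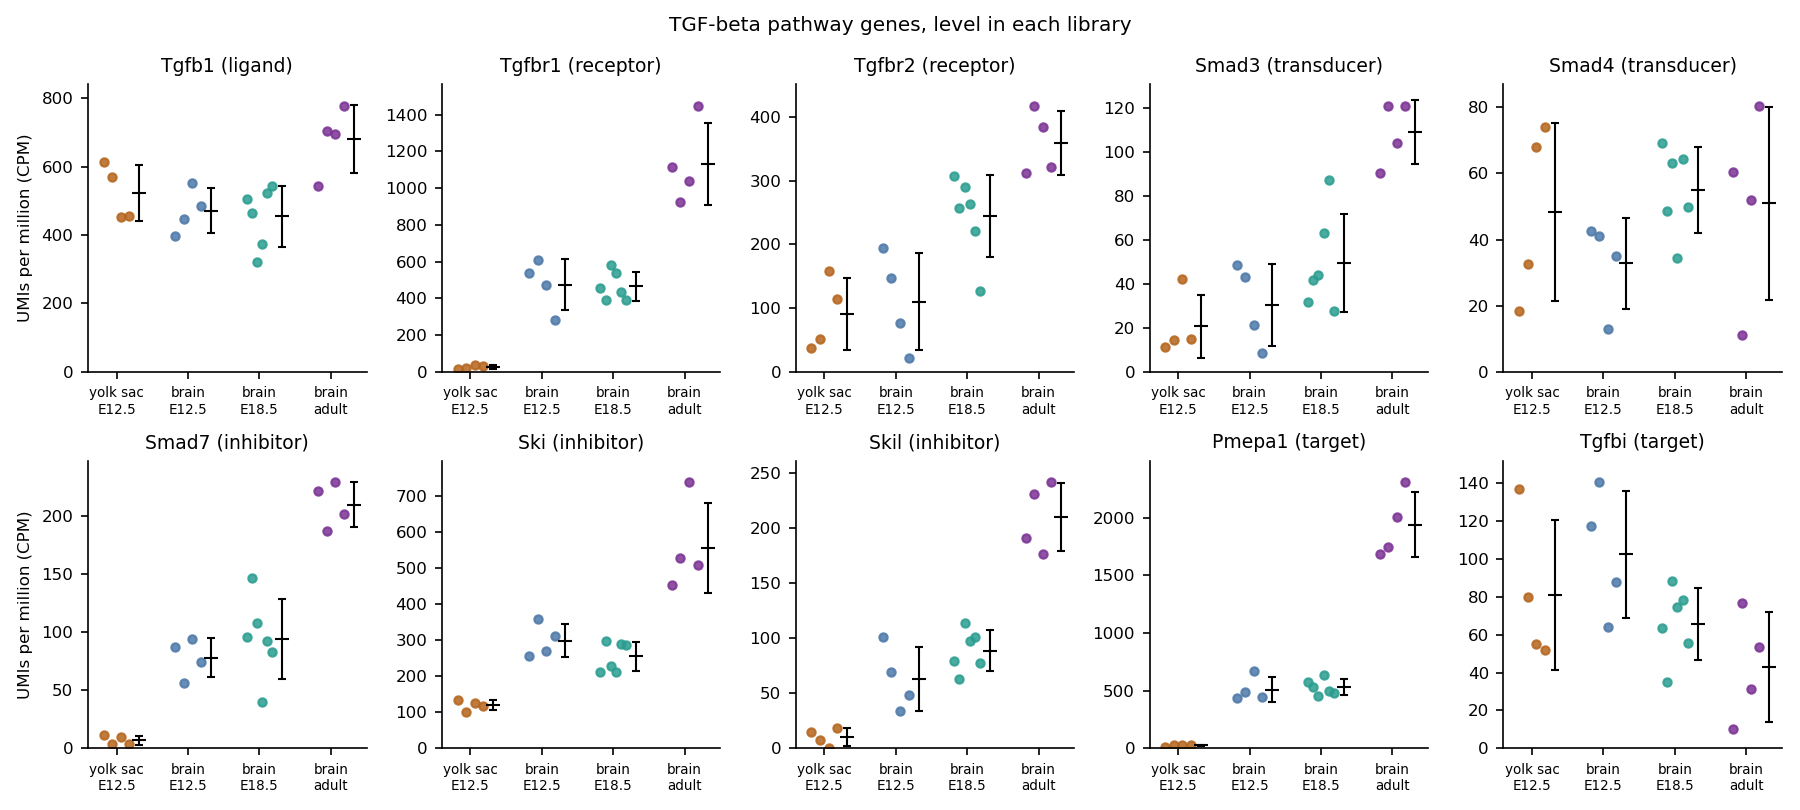
Level of each of the 10 genes in every library, in CPM on a vertical axis that starts at 0 and has its own range in each panel. Each point is 1 library of the group named on the horizontal axis, and the bar beside the points is the mean with 1 SD. Yolk sac libraries lie below every brain library for Tgfbr1, Smad7, Ski, Skil and Pmepa1, and adult libraries lie above every other library for Tgfbr1, Tgfbr2, Smad3, Smad7, Ski, Skil and Pmepa1.

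Tgfb1, the ligand, was measured at 614, 570, 453 and 456 CPM in the 4 yolk sac libraries and at 397, 447, 553 and 486 CPM in the E12.5 brain libraries, so the tissues overlapped. At E18.5 it ranged from 322 to 542 CPM with a median of 485, and the adult libraries held 543, 703, 696 and 778. The adult minimum lay just above the E18.5 maximum, while it fell inside the E12.5 brain range. On the log2 scale Tgfb1 differed by 0.19 ± 0.18 between yolk sac and E12.5 brain (SE; edgeR adjusted p = 0.558) and rose from E18.5 to adult by 0.60 ± 0.17 (edgeR adjusted p = 0.00912). The rise kept its call in 20 of 27 alternatives, with log2 fold changes from 0.17 to 0.73. It was not called without adult replicate 4 (0.51, edgeR adjusted p = 0.06), nor with counts summed per plate (0.54, edgeR adjusted p = 0.147). It was also not called among cells with at most 1 UMI of the granule proteases Mpo, Prtn3, Elane and Ctsg (0.17, edgeR adjusted p = 0.696), a set that holds 240 of 631 adult and 795 of 992 E18.5 cells and was chosen after the data were seen. In the order of mean levels, E18.5 brain (455 ± 88.8 CPM, SD, n = 6), E12.5 brain (471 ± 65.8, n = 4) and yolk sac (523 ± 81.4, n = 4) did not differ from each other by edgeR's adjusted p, and adult brain (680 ± 98.7, n = 4) passed against both brain groups and not against yolk sac (edgeR adjusted p = 0.112). The difference between adult and E12.5 brain was kept in 13 of 24 alternatives. It was lost without E12.5 brain replicate 1 (0.46, edgeR adjusted p = 0.0656) or replicate 2 (0.48, edgeR adjusted p = 0.0625), without adult replicate 4 (0.49, edgeR adjusted p = 0.0576), with plate sums (0.53, edgeR adjusted p = 0.133) and in the granule protease subset (0.19, edgeR adjusted p = 0.608).

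Tgfbr1, the type I receptor and the kinase that phosphorylates the receptor-regulated SMADs, was at 14.8, 21.8, 35.6 and 29.7 CPM in yolk sac, from 29 UMIs in all. In E12.5 brain it was at 536, 608, 471 and 285 CPM. E18.5 libraries ranged from 389 to 581 CPM with a median of 447, and adult libraries held 1116, 923, 1039 and 1448. The yolk sac libraries were all far below the brain libraries, the E12.5 and E18.5 brain libraries overlapped, and the adult libraries were all above both. Tgfbr1 was 17.7-fold lower in yolk sac than in E12.5 brain (log2 fold change -4.15 ± 0.26, edgeR adjusted p = 2.68e-16), differed by -0.04 ± 0.18 between E18.5 and E12.5 brain (edgeR adjusted p = 0.89), and rose 2.47-fold from E18.5 to adult (1.31 ± 0.18, edgeR adjusted p = 4.17e-07). Within batch SB29 alone, with 2 libraries per tissue, the yolk sac difference was -4.32 (edgeR adjusted p = 3.45e-33). The 2 libraries of each tissue share 1 plate there. That p-value thus measures only the spread within a plate, and tissue and plate cannot be told apart.

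Tgfbr2, the type II receptor that binds the ligand first, was at 37.0, 50.8, 159 and 115 CPM in yolk sac and at 194, 148, 77.1 and 21.9 CPM in E12.5 brain. The tissues overlapped, and in both the SB29 libraries were the lower pair. Tgfbr2 ranged from 127 to 308 CPM at E18.5 with a median of 260, and adult libraries held 312, 418, 384 and 322, all above the E18.5 libraries. Its log2 fold change was -0.31 ± 0.46 in yolk sac against E12.5 brain (edgeR adjusted p = 0.747) and -0.16 within SB29 (edgeR adjusted p = 0.892). It was 1.06 ± 0.41 at E18.5 against E12.5 brain (edgeR adjusted p = 0.0677), and this difference was called without E12.5 brain replicate 1 (1.47, edgeR adjusted p = 0.0168) as well as after leaving out E18.5 replicate 6 (1.22, edgeR adjusted p = 0.0282). From E18.5 to adult the log2 fold change was 0.59 ± 0.41 (edgeR adjusted p = 0.351), although the libraries did not overlap, and it was called when only these 2 groups were fitted (0.59, edgeR adjusted p = 0.0298). From E12.5 brain to adult Tgfbr2 rose by 1.65 ± 0.45 (edgeR adjusted p = 0.00839), a call lost with counts summed per plate (1.68, edgeR adjusted p = 0.0896) and without either of the 2 adult plates (1.52, edgeR adjusted p = 0.0905, and 1.59, edgeR adjusted p = 0.0711). No batch holds both E12.5 brain and a later age, so batch and age cannot be told apart there. Tgfbr1 thus separated yolk sac from E12.5 brain in every library where Tgfbr2 did not, and the difference between the receptors was not itself tested.

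The stretches upstream of both receptor genes and of the target Tgfbi are shown because these 3 members were described in the same cells with unlike patterns. They are the 250 bases before the annotated transcript start, read from RefSeq's table for build GRCm38.p6, 5' to 3' on the gene's strand, while the submitters' notes name mm9 for the counts. Capitals mark CAGAC, the core of the SMAD binding element, or its reverse complement GTCTG.
Tgfbr1: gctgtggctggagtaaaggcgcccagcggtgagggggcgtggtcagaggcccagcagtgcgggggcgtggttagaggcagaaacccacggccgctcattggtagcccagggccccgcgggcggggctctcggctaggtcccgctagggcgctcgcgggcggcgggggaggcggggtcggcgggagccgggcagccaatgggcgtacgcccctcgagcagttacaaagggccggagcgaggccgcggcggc
Tgfbr2: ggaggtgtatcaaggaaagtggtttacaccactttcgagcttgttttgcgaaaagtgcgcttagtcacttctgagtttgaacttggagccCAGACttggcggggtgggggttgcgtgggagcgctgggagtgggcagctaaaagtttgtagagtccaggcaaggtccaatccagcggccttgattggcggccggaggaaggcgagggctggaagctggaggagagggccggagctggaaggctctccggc
Tgfbi: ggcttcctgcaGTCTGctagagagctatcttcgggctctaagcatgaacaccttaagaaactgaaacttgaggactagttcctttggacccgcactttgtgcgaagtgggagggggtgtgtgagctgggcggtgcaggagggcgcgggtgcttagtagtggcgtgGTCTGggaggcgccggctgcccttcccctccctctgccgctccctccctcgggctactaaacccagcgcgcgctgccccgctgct
The Tgfbr1 window (chr4:47352972-47353221, plus strand) held no CAGAC on either strand. The Tgfbr2 window (chr9:116175364-116175613, minus strand) held 1, which begins 160 bases before the start. The Tgfbi window (chr13:56609336-56609585, plus strand) held 2, beginning 239 and 85 bases before the start. CAGAC occurs on either strand in 42.2% of 32851 such windows, so its presence sets no promoter apart. The windows of Tgfb1, Smad3 and Ski held none. The longer SMAD palindrome GTCTAGAC, which contains AGAC but no CAGAC (0.167% of windows), the PU.1 motif GAGGAAGT (2.44%) and the AP-1 motif TGANTCA (6.75%) were in none of the 6 windows searched. Smad4, Smad7, Skil and Pmepa1 were not searched, so nothing can be said of their windows. A match is a run of letters and not a bound site, and no binding was measured.

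Smad3, a receptor-regulated SMAD counted in a joined row, was a low-count member: 11.1, 14.5, 42.1 and 14.8 CPM in yolk sac, and 48.6, 43.1, 21.4 and 8.75 CPM in E12.5 brain. E18.5 libraries ranged from 27.7 to 87.3 CPM with a median of 42.9, and adult libraries held 90.5, 121, 104 and 121. The adult libraries were all above the others, and the other 3 groups overlapped. Smad3 rose from E18.5 to adult by 1.14 ± 0.43 (edgeR adjusted p = 0.0487), a call that was kept in 6 of 26 alternatives, with log2 fold changes from 0.92 to 1.41 and adjusted p from 0.0216 to 0.225. Leaving out any 1 of the 4 adult libraries, or any E18.5 library other than replicate 5, ended it. Against E12.5 brain the adult level was higher by 1.73 ± 0.45 (edgeR adjusted p = 0.00225).

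Smad4, the common partner of the receptor-regulated SMADs, showed no difference that passed in any of the 6 contrasts between groups. Its yolk sac libraries spanned 18.5 to 74.2 CPM and its brain libraries 12.9 to 42.5 at E12.5, 34.4 to 69.1 at E18.5 and 11.0 to 80.5 in the adult, where it rested on 18 UMIs in all. The log2 fold change from E18.5 to adult was -0.11 ± 0.48 (edgeR adjusted p = 0.912), with the largest SE of the 10 members in this comparison. In yolk sac and brain at E12.5, as for Tgfbr2, the 4 SB29 libraries (12.9 to 35.0 CPM) were below the 4 others (41.2 to 74.2).

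Smad7, the inhibitory SMAD that blocks Tgfbr1, was nearly at the floor in yolk sac, at 11.1, 3.63, 9.71 and 3.71 CPM from 8 UMIs in all. In E12.5 brain it was at 87.0, 56.2, 94.3 and 74.4 CPM. E18.5 libraries ranged from 40.1 to 146 CPM with a median of 93.8, and adult libraries held 221, 187, 229 and 201. Yolk sac lay below all brain libraries, the embryonic brain groups overlapped, and adult libraries lay above all others. Smad7 was 9.85-fold lower in yolk sac than in E12.5 brain (-3.30 ± 0.44, edgeR adjusted p = 1.46e-07) and rose 2.30-fold from E18.5 to adult (1.20 ± 0.29, edgeR adjusted p = 0.00228).

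Ski, a nuclear corepressor that binds SMADs, was at 133, 102, 126 and 119 CPM in yolk sac and at 255, 358, 270 and 311 CPM in E12.5 brain. It ranged from 212 to 299 CPM at E18.5 with a median of 257, and adult libraries held 452, 527, 738 and 510. The groups fell in the same 3 tiers as for Smad7, with a smaller gap between yolk sac and brain. Ski was 2.42-fold lower in yolk sac (-1.27 ± 0.20, edgeR adjusted p = 5.1e-06) and rose 2.24-fold from E18.5 to adult (1.16 ± 0.19, edgeR adjusted p = 7.19e-06). With all libraries thinned to the same total the yolk sac difference was -0.68 and not called (edgeR adjusted p = 0.0751).

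Skil, the related corepressor also known as SnoN, had 4, 2, 0 and 5 UMIs in the yolk sac libraries, or 14.8, 7.26, 0 and 18.5 CPM. The count of 0 in replicate 3 allows up to 9.71 CPM, and such limits cover counting error only. E12.5 brain libraries held 101, 69.3, 34.3 and 48.1 CPM, E18.5 libraries 62.6 to 114 with a median of 88.6, and adult libraries 191, 231, 177 and 241. Skil followed the same tiers: it was 6.24-fold lower in yolk sac than in E12.5 brain (-2.64 ± 0.45, edgeR adjusted p = 1.75e-05) and rose 2.39-fold from E18.5 to adult (1.26 ± 0.32, edgeR adjusted p = 0.00321). With sequencing batch as a covariate the yolk sac difference was -1.86 (edgeR adjusted p = 0.0678). Among cells with at most 1 granule protease UMI the adult rise was 0.76 (edgeR adjusted p = 0.271), and without the plate of adult replicates 1 and 2 it was 1.16 (edgeR adjusted p = 0.0697).

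Pmepa1, a membrane protein that is induced by TGF-beta and sequesters receptor-regulated SMADs, showed the largest fold changes of the 10 in both the tissue comparison and the last age step. Yolk sac libraries held 14.8, 29.0, 29.1 and 29.7 CPM, from 29 UMIs in all, and E12.5 brain libraries 433, 487, 673 and 446. It ranged from 454 to 636 CPM at E18.5 with a median of 518, and adult libraries held 1689, 1747, 2005 and 2307. The E18.5 range lay inside that of E12.5 brain, and neither met the yolk sac or adult libraries. Pmepa1 was 18.9-fold lower in yolk sac (-4.24 ± 0.23, edgeR adjusted p = 4.26e-18), differed by 0.05 ± 0.16 between E18.5 and E12.5 brain (edgeR adjusted p = 0.843) and rose 3.72-fold from E18.5 to adult (1.90 ± 0.16, edgeR adjusted p = 1.74e-12). In the granule protease subset the last step was 1.75 (edgeR adjusted p = 1.28e-08).

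Tgfbi, an extracellular matrix protein that is likewise induced by TGF-beta, did not pass in either of those comparisons. It was at 137, 79.8, 55.0 and 51.9 CPM in yolk sac and at 117, 140, 64.3 and 87.5 CPM in E12.5 brain. E18.5 libraries ranged from 34.8 to 88.3 CPM with a median of 69.1, and adult libraries held 10.1, 76.9, 31.2 and 53.6, from 15 UMIs in all. Every pair of groups overlapped. The difference between yolk sac and E12.5 brain was -0.34 ± 0.32 (edgeR adjusted p = 0.588), and the steps between successive brain ages were -0.66 ± 0.31 (edgeR adjusted p = 0.119) and -0.63 ± 0.46 (edgeR adjusted p = 0.365). Across the whole span Tgfbi was lower in adult than in E12.5 brain by -1.29 ± 0.45 (edgeR adjusted p = 0.0197), a call lost, among other alternatives, without E12.5 brain replicate 2 (-1.13, edgeR adjusted p = 0.0614), adult replicate 1 (-0.96, edgeR adjusted p = 0.103) or adult replicate 3 (-1.15, edgeR adjusted p = 0.0693).

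**Figure D2:**
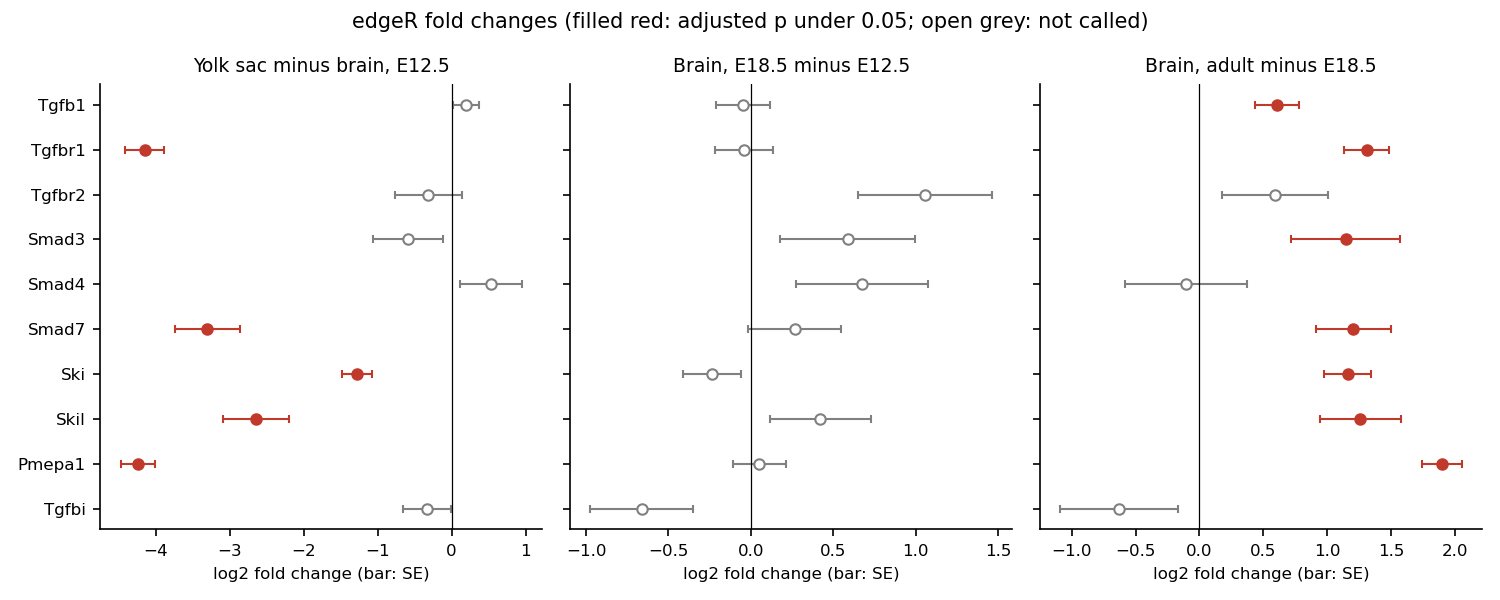
Log2 fold change of each gene with its standard error for yolk sac minus brain at E12.5, for brain at E18.5 minus E12.5 and for adult minus E18.5 brain; the horizontal range differs between the 3 panels. Filled red points passed edgeR's adjusted p of 0.05 and open grey points did not. In the first panel 5 genes are called lower, in the middle panel 0 are called, and in the last panel 7 are called higher.

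From E12.5 to adult brain, 8 members were higher, 1 (Tgfbi) was lower and Smad4 did not pass, against 38.6% of all genes in either direction, 17.8% higher and 20.7% lower. With sequencing batch as a covariate 0 of the 10 passed (Pmepa1 1.36, edgeR adjusted p = 0.0861; Tgfbr1 0.74, edgeR adjusted p = 0.458), and the estimate then rests on the yolk sac libraries that share a batch with each age. Yolk sac was also set against the later brain groups to order the levels. Against E18.5 brain 7 members were lower in yolk sac (37.0% of all genes passed, 18.2% lower), and against adult brain 7 were lower (44.7% passed, 21.6% lower). Tgfb1, Smad4 and Tgfbi were the 3 that did not pass in either. For Tgfbr1, Smad7, Ski, Skil and Pmepa1 the order of mean levels put yolk sac lowest and adult highest, with E12.5 and E18.5 brain not differing beyond their spread. For Tgfbr2 and Smad3 the order was yolk sac, E12.5 brain, E18.5 brain and adult, and in it only steps that skip a neighbour, and for Smad3 the last step, passed.

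The fall in UMIs per cell with age means that a level in CPM and a count per cell do not move alike. Pmepa1 averaged 0.043 UMIs per cell in yolk sac, 1.02 in E12.5 brain, 0.569 at E18.5 and 1.10 in adult brain. Tgfbr1 averaged 0.043, 1.07, 0.498 and 0.639, so its adult count per cell was above that at E18.5 but below that in E12.5 brain. For Tgfb1 the UMIs per cell were 0.873, 0.940, 0.494 and 0.385, lowest in the adult group where its level in CPM was highest. How much RNA a cell held and how well it was captured cannot be told apart in these counts.

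To compare the share of cells with a UMI at equal depth, each cell was thinned to 300 UMIs. At that depth Pmepa1 was seen in 0.90% ± 0.77 of yolk sac cells (mean ± SD over 4 libraries), 13.7% ± 3.7 of E12.5 brain cells (n = 4), 12.8% ± 1.8 at E18.5 (n = 6) and 41.2% ± 4.9 in adult brain (n = 4). Without thinning the shares were 3.60%, 46.4%, 35.2% and 56.6%. Tgfbr1 was seen in 0.63% ± 1.25, 14.3% ± 5.6, 13.9% ± 2.2 and 26.0% ± 6.6 of thinned cells, and in 4.05%, 53.0%, 35.1% and 42.8% without thinning. The thinned shares keep the 3 tiers of the levels in CPM, and the unthinned shares put E12.5 brain above E18.5 brain for both genes, and for Tgfbr1 above adult brain. Tgfb1 was seen in 14.7% ± 2.8, 13.4% ± 3.7, 14.2% ± 2.7 and 17.8% ± 2.9 of thinned cells, and the libraries of all 4 groups overlapped. Smad3 was seen in 0 of 671 thinned yolk sac cells, which allows a share of thinned cells of up to 0.447%, and in 3.01% ± 0.58 of thinned adult cells. Without thinning it was seen in 21 of the same 671 yolk sac cells (3.13%) and in 5.86% of adult cells. As a background level, the 36 empty wells held 1008 UMIs in all, of which 3 were from the 10 members.

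**Figure D3:**
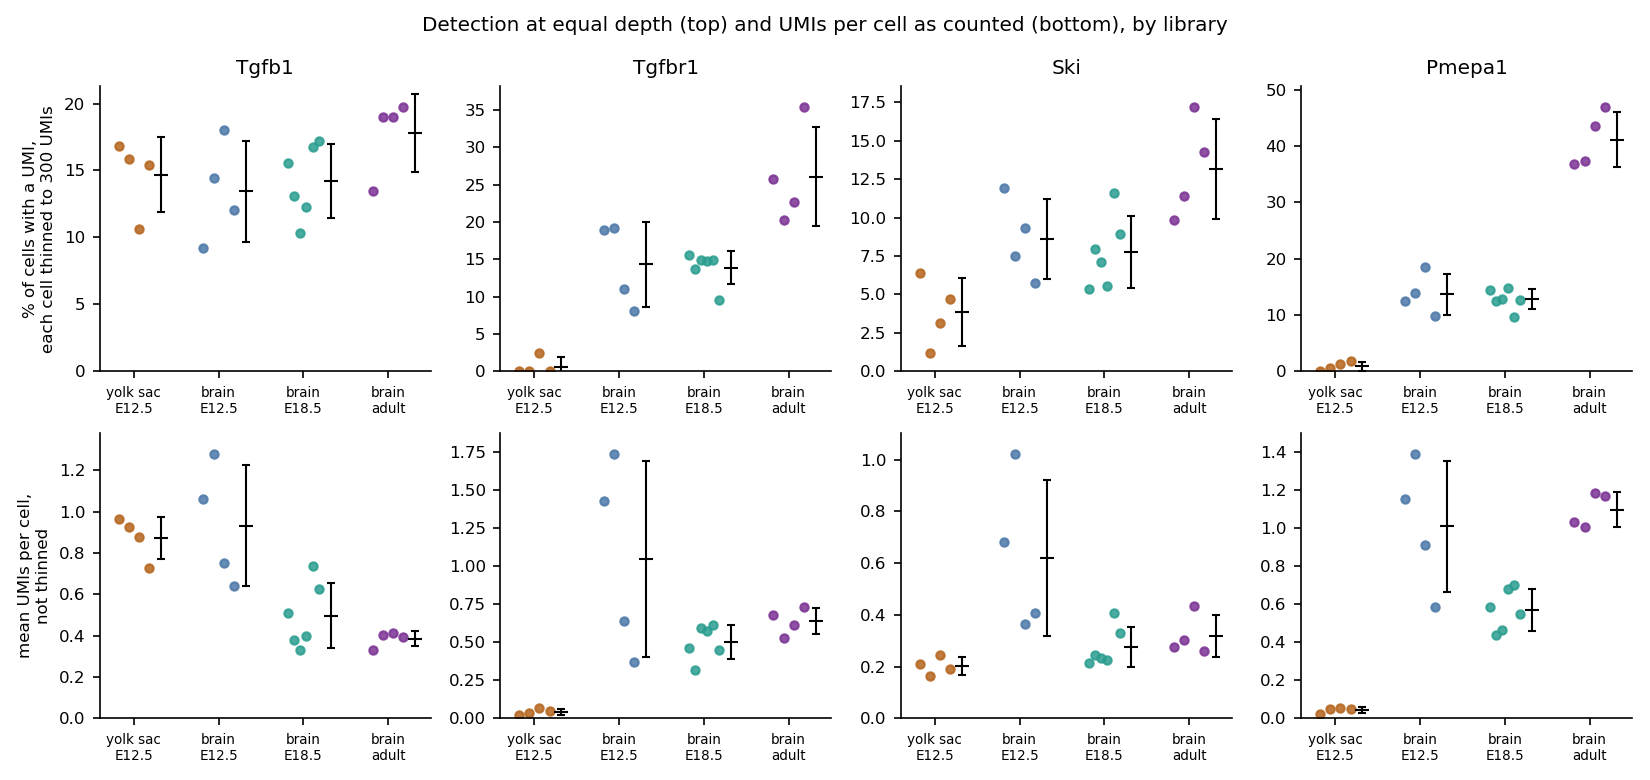
Share of cells with at least 1 UMI after thinning every cell to 300 UMIs (top, percent) and mean UMIs per cell as counted (bottom), for Tgfb1, Tgfbr1, Ski and Pmepa1. Each point is 1 library and bars are the mean with 1 SD; every axis starts at 0. For Pmepa1 the adult share is 41.2% against 12.8% at E18.5, while its UMIs per cell are 1.10 in adult and 1.02 in E12.5 brain.

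The number of members seen in 1 cell differed by group in the same thinned cells. No member was seen in 76.2% of yolk sac cells, 52.2% of E12.5 brain cells, 50.7% of E18.5 cells and 23.1% of adult cells. At least 1 UMI of exactly 2 members was seen in 2.24%, 10.4%, 10.9% and 27.6% of cells. Tgfbr1 and Pmepa1, whose levels across the libraries were most alike, were seen together in 15 thinned cells of E12.5 brain, 16 of E18.5 brain and 62 of adult brain, where independent draws within libraries would give 14.3, 17.8 and 67.9. Among the pairs counted, the largest differences in number of cells were Tgfb1 with Tgfbr1 in E12.5 brain, 20 where 13.5 were computed, and Tgfbr2 with Pmepa1 at E18.5, 16 where 9.89 were computed. None of these counts was tested.

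Members were spread unevenly over the cells to different degrees, measured as the squared deviation of counts from the value that each cell's depth and the library mean predict, over the Poisson value. For Tgfb1 this ratio was 1.18, 1.18, 1.15 and 1.07 in yolk sac, E12.5, E18.5 and adult brain, close to the Poisson value of 1. For Pmepa1 it was 2.17 in E12.5 brain, 1.68 at E18.5 and 1.65 in adult brain. In E12.5 brain 53.3% of cells held no Pmepa1 UMI where a Poisson draw gives 42.0%, and single cells held up to 11. Tgfbr1 in the same E12.5 cells had a ratio of 1.38, with 46.4% of cells at 0 UMIs and 44.3% by the Poisson draw. Among members with at least 50 UMIs in a group, Pmepa1 had the highest ratio in each of the 3 brain groups, and Tgfb1 the lowest in each group except E18.5, where Smad4 was at 1.11.

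**Figure D4:**
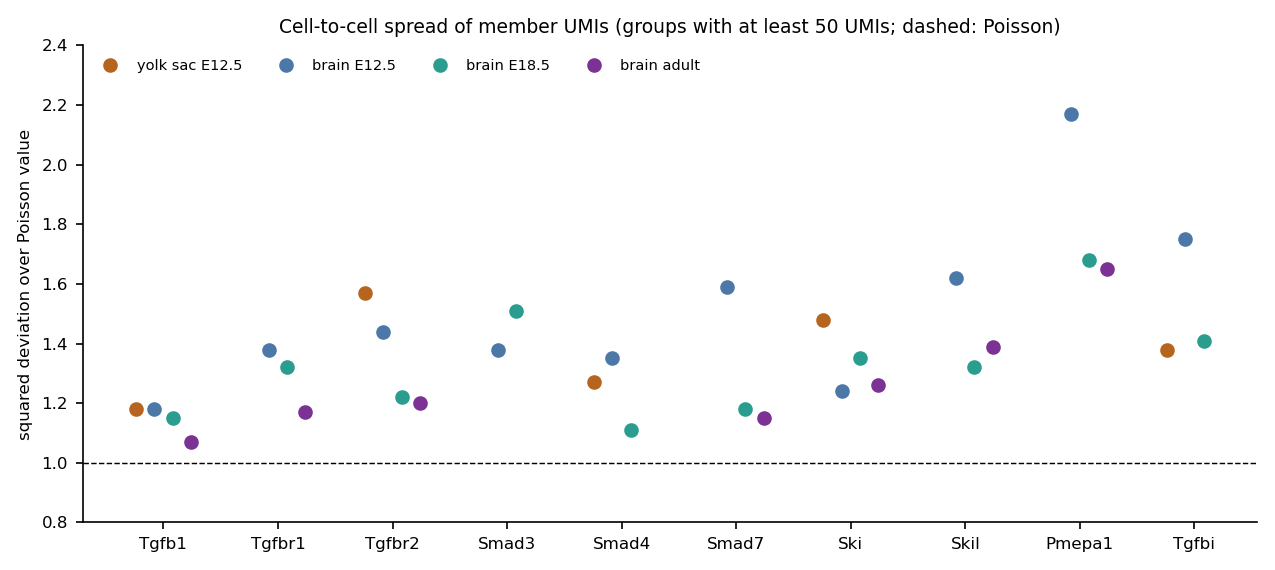
Cell-to-cell spread of each gene's UMIs, as squared deviation over the Poisson value on an axis from 0.8 to 2.4, for every group in which the gene had at least 50 UMIs. Points are groups and the dashed line is the Poisson value of 1. Pmepa1 in E12.5 brain is the highest point at 2.17, and Tgfb1 lies at 1.07 to 1.18.

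Cells of the brain were also split by markers of yolk sac and border macrophages, or by microglia markers. The splits were chosen after the values were seen, and nothing was tested. In E12.5 brain 31 cells held at least 3 UMIs of the 7 yolk sac and border macrophage markers, and Tgfbi was at 291 CPM in them (27 UMIs) against 101 CPM in the other 687 cells (141 UMIs). Tgfbr1 was at 291 CPM in the former and 528 CPM in the latter, and Pmepa1 at 572 and 487. At E18.5 there were 14 such cells, with Tgfbi at 541 CPM (12 UMIs) against 56.7 CPM in the other 978 (59 UMIs), and in adult brain there were 0. Tgfbr1 at E18.5 was the other way round, at 586 CPM in the 14 cells (13 UMIs) against 462 CPM in the others, and Pmepa1 was at 766 and 525 CPM. The marker-positive cells were deeper, with a median of 2683 against 1716 UMIs in E12.5 brain. Among E12.5 brain cells with under 3 UMIs of 6 microglia markers (131 cells, median 863 UMIs), Tgfbr1 was at 290 CPM and Pmepa1 at 304, against 538 and 513 CPM in the other 587 cells (median 1957 UMIs). The gap was smaller at E18.5, with Tgfbr1 at 411 and 466 CPM and Pmepa1 at 499 and 531 in 61 and 931 cells. In 40 and 591 adult cells Tgfbr1 was at 959 and 1122 CPM, and Pmepa1 at 2046 and 1909. A low marker count also selects shallow cells. All these values are pooled over the libraries of a group, which differ in depth and in levels. The part of cell depth and of library in these values was not tested.

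Granule protease UMIs were also higher in the adult libraries, in which 7 members rose: 524 of 631 adult cells (83.0%) held at least 1 such UMI, against 138 of 718 in E12.5 brain, 459 of 992 at E18.5 and 307 of 671 in yolk sac. When only cells with at most 1 of these UMIs were summed, 4 members rose from E18.5 to adult (Tgfbr1 1.32, Smad7 1.16, Ski 1.19 and Pmepa1 1.75 on the log2 scale) in place of 7, and the calls for Tgfb1 (0.17), Skil (0.76) and Smad3 were lost. For Smad3 the value was close to that in all kept cells (1.10 ± 0.59 against 1.14 ± 0.43). Fewer cells enter this fit, which tested 3809 genes, of which 562 passed, in place of 4883, of which 1050 passed. A limit on a raw count also favours shallow cells. The part of cell number and depth in the lost calls was not tested. In all kept cells the same 4 were at 1.31, 1.20, 1.16 and 1.90.

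The genes with the most similar pattern over the 18 libraries are given as a description, by Pearson's r of log2(CPM + 10), among 3170 rows with a single symbol and a mean of at least 50 CPM. All 18 points share 4 groups, so that r mostly reads the differences between groups. Tgfbr1 and Pmepa1 were each other's closest gene (r = 0.98), followed by Fmnl3 for Tgfbr1 (0.97) and Tmem119, a microglia marker, for Pmepa1 (0.98). Smad7 was closest to Tmem119 and Rtn4rl1 (both 0.96), Skil to Ets1 (0.95), Ski to Maml3 (0.94), Tgfbr2 to Tram1 (0.92), Smad3 to Pip4k2a (0.89) and Tgfb1 to Zfp467 (0.89). Among Tgfbr1, Smad7, Ski, Skil and Pmepa1 the 10 pairwise values ran from 0.86 to 0.98. Tgfb1 correlated with the other 9 members at -0.25 to 0.43, and Tgfbi with them at -0.43 to -0.25.

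The rest of the TGF-beta family list held 93 genes, of which 31 passed the filter on low counts; none of the 15 other ligands did. In yolk sac against E12.5 brain 4 of the 31 were higher and 2 lower, beside 15.9% of all genes called, with a median log2 fold change of 0.15. Dab2, an endocytic adaptor that binds TGF-beta receptors, was 12.3-fold higher in yolk sac (1163 ± 186 CPM, SD, n = 4, against 91.5 ± 44.0, n = 4; 3.63 ± 0.25, edgeR adjusted p = 1.06e-13). The ubiquitin ligase Wwp1 (2.10) and the cell cycle inhibitor Cdkn1a (2.06) were higher as well. Itgb5, an integrin subunit that can take part in releasing latent TGF-beta, was 4.55-fold lower (289 ± 41.9 against 1349 ± 149 CPM, n = 4 each; -2.19 ± 0.15, edgeR adjusted p = 5.01e-15), and Ldlrad4, which restrains SMAD phosphorylation, was lower by a log2 fold change of -2.27. The remaining call was Nrros, which holds latent TGF-beta on the surface of microglia and other myeloid cells, higher by 0.75 and named to complete the count.

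With age, 3 of these 31 genes were higher and 1 lower at E18.5 than in E12.5 brain, where 24.5% of all genes passed. In adult against E18.5 brain 4 were higher and 5 lower, where 21.5% of all genes passed. Junb, Fkbp1a and Sptbn1 were each counted in a row joined with another transcript, so their values are those of the joined rows. Junb, an AP-1 subunit and a known SMAD-induced gene that many stimuli also induce, was at 81.7 ± 27.9 CPM in E12.5 brain, 829.3 ± 168 at E18.5 and 1783 ± 301 in adult brain (n = 4, 6 and 4). It rose by 3.39 ± 0.22 in the first step (edgeR adjusted p = 1.33e-15) and by 1.13 ± 0.17 in the second (edgeR adjusted p = 3.63e-06). The other calls of the first step were Cdkn1a (1.16) and Nrros (0.44), which were higher, and Fkbp1a (-0.99), which encodes a protein that binds Tgfbr1. In the second step the ubiquitin ligase Smurf1 (1.68) and Ldlrad4 (1.17) rose, and Dab2 (-2.89), the spectrin Sptbn1 (-1.69) and the ubiquitin ligase Wwp2 (-0.96) fell. Over the whole span from E12.5 to adult brain 7 were higher and 5 lower, a share near the 38.6% of all genes that passed, led by Junb (4.53), Tgif1 (2.29) and Ldlrad4 (2.04) above and by Dab2 (-2.25), Sptbn1 (-1.48) and Wwp2 (-1.05) below. The median of the 31 was 0.00 in adult against E18.5 brain, where that of the 10 members was 1.15. Both lists were chosen with earlier results of these data known, so the 2 medians are set side by side as a description only.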

How the data were processed

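The members and gene lists were chosen with earlier results of these data known. The authors deposited UMI counts per gene and well, whole numbers that were not normalized. Per the submitters' processing notes, bcl2fastq 2.15.0.4 and build mm9 were used. Aligner, UMI collapsing and gene models: not given in the sources used here. Of 3420 wells annotated with 1 cell, 3012 with at least 300 UMIs were kept, 129 adult wells being among the 408 left out; each well received 1 sorted cell, so no doublet caller was run, and 0 wells shared a sequencing batch, pool barcode and cell barcode with another. Counts were summed per library and tested with edgeR 4.0.16 (limma 3.58.1, R 4.3.3): TMM, filterByExpr, quasi-likelihood F-tests with robust dispersions, all groups in 1 model, adjusted over 4883 genes, and checked on simulated data. DESeq2 1.42.0, other scalings, filters, cell minimums of 200 and 500 UMIs, and each library left out were alternatives. Library pairs had a chi-square per degree of freedom of 1.44 to 2.08 on the same plate and up to 4.60 between plates at E12.5. Libraries of a plate were thus more alike at E12.5 than libraries of different plates. They were kept apart in the main fit, so its p-values count the 2 libraries of a plate as separate replicates. Sums per plate were an alternative. All 10 members were described. Per comparison, the 3 called genes of the family list with the largest change in each direction were named, and for each member with a mean of at least 50 CPM the most similar genes. Of the family list, 3 genes were matched by older symbols. Motifs were searched in the RefSeq windows of 6 members. The windows of Smad4 and Smad7 were left out by rule and not searched, and no window was found for Skil and Pmepa1.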

Additional observations from a re-analysis of the deposited data

Results flagged for a closer look

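In a group of 4 to 10 libraries, 1 library was taken to stand apart when its gap to the nearest other, over the range of the group, passed Dixon's 95% critical value. Of 40 combinations of member and group, 2 did, and chance gives about 1 in 20. Smad3 was at 42.1 CPM in yolk sac replicate 3, above the 11.1 to 14.8 CPM of the other yolk sac libraries. Pmepa1 was at 14.8 CPM in yolk sac replicate 1, from 4 UMIs, below the 29.0 to 29.7 CPM of the others.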

How the results depend on the processing

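Over 1010 values of the members under alternatives, 940 kept their side of the threshold, 60 lost a call and 9 gained one. A change of sign was counted only where the main or the alternative fit called the gene, and 1 value reversed so. With sequencing batch as a covariate Tgfbi was 0.14 in adult against E12.5 brain. That estimate rests on the yolk sac libraries, and 0 members were called there. The 940 include values that were called in neither fit and changed sign. Pmepa1 at E18.5 against E12.5 brain, for example, ran from -0.54 to 0.45. At E18.5 against E12.5 brain 1 member was called by DESeq2, without the filter and with libraries thinned to 1 total (Tgfbr2 each time); leaving out libraries gave 0 to 1. In yolk sac against E12.5 brain every leave-out kept 5 calls, and SB29 alone gave 4 of 7 tested (Smad3, Smad4 and Skil did not enter). In SB29 each tissue is 1 plate, so tissue and plate cannot be told apart in that fit. Adult against E18.5 brain gave 5 to 7 without single libraries or plates and 4 in cells with at most 1 granule protease UMI, a filter added, as were plate leave-outs, after seeing the data; adult against E12.5 brain gave 6 to 9. Genes called over all, 774, 1195, 1050 and 1883 of 4883 tested, came to 493, 660 and 698 with plate sums in the first 3 (6902 tested), to 367, 648, 674 and 1075 with thinned libraries (2351 tested, so that fewer genes could be called), to 332 (E18.5 against E12.5) and 910 (adult against E12.5) with the batch covariate and to 562 (adult against E18.5) and 1156 (adult against E12.5) in the granule protease subset (3809 tested); leaving out libraries gave 549 to 728, 642 to 1204, 634 to 1033 and 1455 to 1797. Beyond the numbers tested, the cause was not tested. The median of all genes moved by -0.18 and -0.24 without the filter (adult against E18.5 and E12.5), by 0.15 with thinned libraries and by -0.11 in the granule protease subset. Of 40 shares of cells, 39 moved without thinning and 33 moved when cells were thinned to 500 UMIs. The shares thus hold only for the depth they are given at. Low counts limit Smad3, Smad4 and Tgfbi. In yolk sac they also limit Smad7 (8 UMIs in all), Skil (11), and Tgfbr1 and Pmepa1 (29 each). No paired analysis was possible because the replicate numbers follow accession order and only name libraries.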
